A study of Mus musculus with 6 samples.

Results

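Of 49671 mouse genes in a table of RNA-seq read counts, 56 belong to a set of genes of DNA replication and S phase, the stage of the cell cycle in which the genome is copied. The genes were chosen by symbol for their role, not by a value in the table, but with earlier results of these data known. All 56 were found and passed the filter on low counts. They comprise the subunits of the origin recognition complex with Cdc6 and Cdt1, the MCM, GINS and Cdc45 subunits of the replicative helicase, its activating kinase, the replicative polymerases, the sliding clamp and its loader, enzymes of nucleotide supply and Okazaki fragment maturation, E2F transcription factors with E-type cyclins, and chromatin assembly and maintenance methylation factors.

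The 6 libraries comprised 3 from each treatment of a floxed Tcf7l2 preadipocyte line. The knockout libraries came from cells given 4-hydroxytamoxifen (4-OH-Tam) for 24 h, starting 2 days before differentiation, and the control libraries from cells of the same line given ethanol (EtOH), which the labels call wild type. Preadipocytes had been sorted from inguinal white fat of C57BL/6 mice (labelled 3 months old), immortalised with SV40 large T antigen and given CreERT2, a Cre recombinase that 4-hydroxytamoxifen activates, both by retrovirus. All cells therefore carried floxed Tcf7l2, SV40 large T antigen and CreERT2. Differentiation was induced for 2 days with dexamethasone, isobutylmethylxanthine and insulin and ran until day 8. The labels add an agent at 5 nM under a code that differs in every library, and do not settle whether the agent itself differed. Deletion and 4-hydroxytamoxifen exposure cannot be told apart in this design. The labels do not say that libraries came from separate cultures, so each p-value is set against the variation among these libraries alone, and that variation may be technical.

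Replication starts at origins that are licensed in G1. The origin recognition complex, Cdc6 and Cdt1 load the MCM helicase onto DNA there, and the kinase Cdc7-Dbf4 together with cyclin-dependent kinases turns it into the active helicase of Cdc45, MCM and GINS. Many genes of this machinery are transcribed by E2F factors, which proteins of the retinoblastoma (RB) family hold back in resting cells, and SV40 large T antigen binds and inactivates RB family proteins. Differentiating preadipocyte lines can divide for a while after hormonal induction before they leave the cell cycle.

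Total counts ran from 26764263 to 31520011 per knockout library and from 26621293 to 33484764 per control library. The first principal component of the log2 levels carried 60.7% of the variance and set knockout against control libraries, and the second (16.4%) set knockout replicate 2 (-11.4) and control replicate 3 (-8.54) apart from the other 4 libraries, which lay above 0. The targeted gene, Tcf7l2, was at 5.65, 6.85 and 5.86 CPM (counts per megaread of TMM-scaled library size) in knockout libraries and at 7.71, 6.13 and 9.11 CPM in control libraries. The groups overlapped (log2 fold change -0.32 with an SE of 0.14, edgeR adjusted p = 0.125; exact 2-sided permutation p = 0.2, smallest possible 0.1). When control replicate 2 was left out, the fitted value became -0.46 on the log2 scale, and edgeR called it (adjusted p = 0.0322). Which exons were floxed is not given in the labels, so counts over the whole gene do not check the deletion.

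The replication genes were mostly lower in knockout cells, by small amounts. Of the 56, 33 were called lower, 1 was called higher and 22 were not called (edgeR quasi-likelihood test, Benjamini-Hochberg adjusted p under 0.05 over all genes tested). Over all 14946 tested genes, 22.4% were called, 10.5% lower and 11.9% higher. The median log2 fold change, knockout over control, was -0.21 for the 56 genes and -0.0017 for all tested genes. The fitted change was below 0 for 50 of the 56. The called falls ran from 1.12-fold for Pole to 1.38-fold for Mcm5, with a median of 1.22-fold. The gene called higher was E2f2, which encodes an E2F transcription factor, at 1.62-fold. In 42 of the 56 genes (75%) every knockout library lay below every control library, among them all 33 genes called lower. This held for 19.3% of all tested genes. Together the 56 genes had 4139, 3998 and 3947 CPM in the knockout libraries, against 4835, 4567 and 4639 CPM in the control libraries. The knockout libraries were all below the control libraries in this sum.

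**Figure D1:**
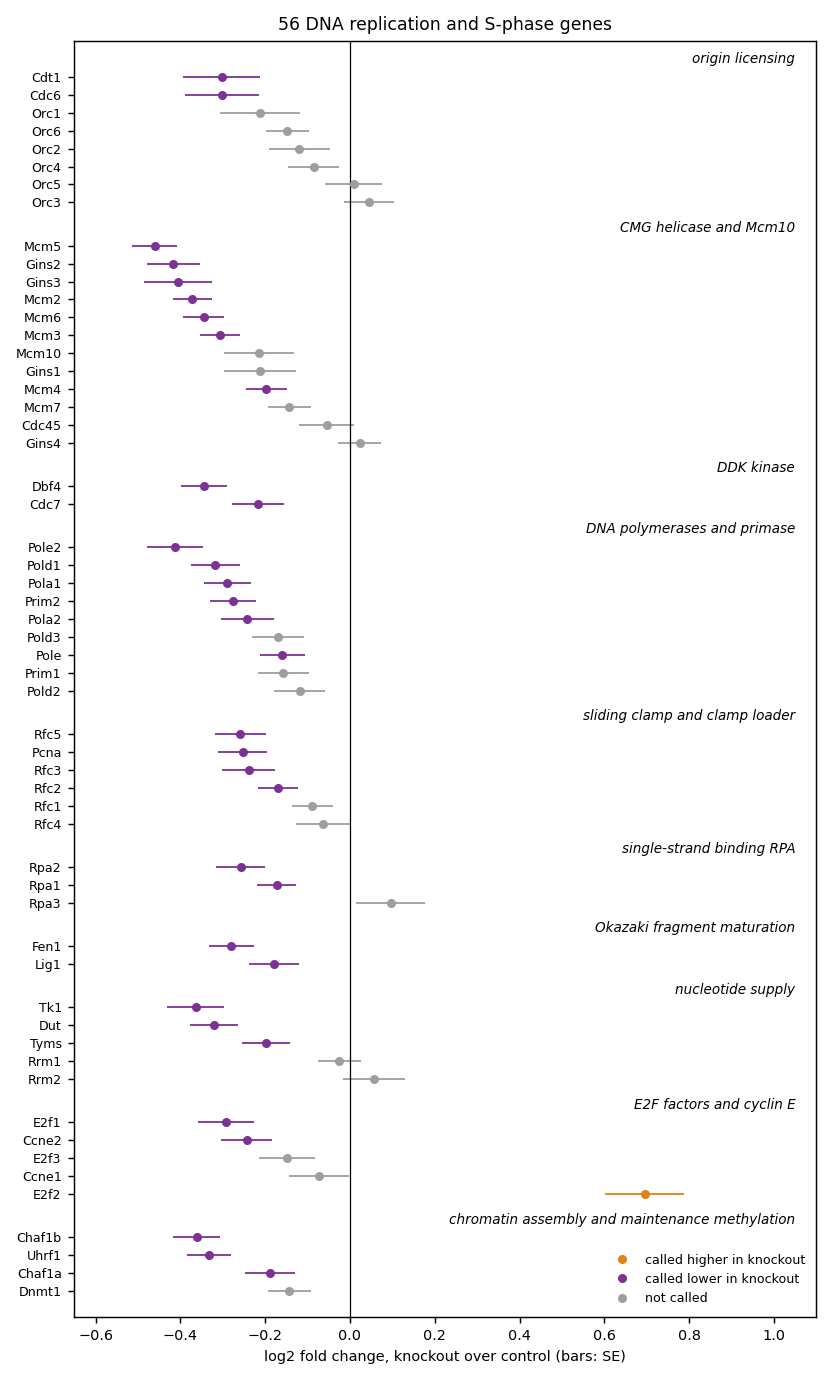
Log2 fold change (horizontal axis, knockout over control, bars are SE) of the 56 genes, grouped by role, with colour for the edgeR call at an adjusted p under 0.05. Of the 56 points, 50 lie below 0, and E2f2 stands alone to the right at 0.69.

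Adipocyte genes moved the opposite way in the same libraries. All 8 of the adipocyte markers Adipoq, Plin1, Fabp4, Cidec, Lep, Cd36, Lipe and Pnpla2 rose, from 1.56-fold (Fabp4) to 3.81-fold (Lep), and their summed level was 9904 to 11917 CPM in knockout and 6742 to 6970 CPM in control libraries. Lep was low, at 2.33 ± 0.377 CPM in knockout and 0.598 ± 0.192 CPM in control libraries (SD, n = 3 each). The next largest rise was 1.95-fold (Pnpla2). None of 8 adipose progenitor markers was called by edgeR, although 3 had an unadjusted p under 0.05; their sum was 3478 to 3600 CPM in knockout and 3415 to 3629 CPM in control libraries. That sum holds genes that differed in opposite directions without overlap between groups: Ly6a was at 918 ± 86.1 CPM in knockout and 671 ± 115 CPM in control libraries (edgeR adjusted p = 0.0539), and Pdgfra at 1135 ± 44.8 CPM in knockout and 1247 ± 22.6 CPM in control libraries (SD, n = 3 each; edgeR adjusted p = 0.0593). Itgb1 was at 1031 ± 33.8 CPM in knockout and 1111 ± 31.8 CPM in control libraries, also without overlap (SD, n = 3 each; edgeR adjusted p = 0.127). Markers of other lineages were low; cells of the endothelial, leukocyte and erythroid lineages had been removed by the sort. The sum of 4 leukocyte markers was 1.51 to 2.07 CPM in knockout and 1.17 to 1.64 CPM in control libraries, with Adgre1 and Cd3e at 0. The globin genes Hba-a1, Hba-a2 and Hbb-bs of the erythroid list were at 0 in all libraries. The sum of 4 mural markers was 8.51 to 11.0 CPM in knockout and 9.87 to 10.7 CPM in control libraries. Within it Rgs5 rose 1.61-fold (1.89 ± 0.389 CPM in knockout and 1.18 ± 0.0926 CPM in control libraries; SD, n = 3 each; edgeR adjusted p = 0.0229), and Myh11, which made up most of the sum, was not called. That of 4 endothelial markers was 17.3 to 18.7 CPM in knockout and 12.6 to 14.8 CPM in control libraries, almost all of it Kdr, which rose 1.30-fold (edgeR adjusted p = 0.00363), while Pecam1, Cdh5 and Tie1 were too low to be tested. The part of cell composition in the lower replication transcripts was not tested. In these bulk libraries, fewer cycling cells and less of each transcript per cycling cell cannot be told apart.

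Promoter sequence was examined as a planned description, without a test. Many of the genes are known E2F targets. RefSeq (GRCm38.p6) gave windows from 250 bases before to 50 bases after the annotated start for 48 of the 56 genes. In 49 of their 62 windows, bases after the start matched a GENCODE M21 transcript of the gene. The letters TTTCCCGC, TTTCGCGC, TTTGCCGC or TTTGGCGC, versions of the E2F consensus, were searched on both strands; matches on opposite strands may overlap. They stood in a window of 19 of the 48 genes (39.6%), against 4.72% of the tested genes and 2.6% of all genes with a window. The share was also high in 2 related lists described below. It was 9 of 32 other replication genes with a window (28.1%) and 7 of 23 RB, E2F and kinase control genes (30.4%). For mitosis and G2/M genes it was 1 of 27 (3.7%). Windows of 4 genes are shown, with E2F letters in capitals. Mcm5 had the largest fall, Mcm6 the highest level per length, E2f2 the rise, and Orc3 was not called although it holds the letters.
Mcm5: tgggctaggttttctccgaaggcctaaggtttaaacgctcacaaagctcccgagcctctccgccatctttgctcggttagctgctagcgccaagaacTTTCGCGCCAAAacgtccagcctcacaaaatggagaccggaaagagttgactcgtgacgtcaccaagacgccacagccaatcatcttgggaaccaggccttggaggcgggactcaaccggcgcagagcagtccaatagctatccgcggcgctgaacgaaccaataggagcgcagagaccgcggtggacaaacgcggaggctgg
Mcm6: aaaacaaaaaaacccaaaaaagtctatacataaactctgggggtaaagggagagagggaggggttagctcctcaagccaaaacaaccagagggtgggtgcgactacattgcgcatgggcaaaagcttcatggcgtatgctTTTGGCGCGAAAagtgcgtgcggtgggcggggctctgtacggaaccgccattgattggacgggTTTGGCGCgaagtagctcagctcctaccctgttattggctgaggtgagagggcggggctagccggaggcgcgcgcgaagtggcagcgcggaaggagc
E2f2: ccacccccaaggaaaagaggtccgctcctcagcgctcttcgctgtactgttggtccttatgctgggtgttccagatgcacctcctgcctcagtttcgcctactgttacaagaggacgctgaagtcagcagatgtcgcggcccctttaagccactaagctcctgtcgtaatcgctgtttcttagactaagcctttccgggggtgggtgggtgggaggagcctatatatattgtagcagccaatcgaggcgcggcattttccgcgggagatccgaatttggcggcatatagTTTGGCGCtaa
Orc3: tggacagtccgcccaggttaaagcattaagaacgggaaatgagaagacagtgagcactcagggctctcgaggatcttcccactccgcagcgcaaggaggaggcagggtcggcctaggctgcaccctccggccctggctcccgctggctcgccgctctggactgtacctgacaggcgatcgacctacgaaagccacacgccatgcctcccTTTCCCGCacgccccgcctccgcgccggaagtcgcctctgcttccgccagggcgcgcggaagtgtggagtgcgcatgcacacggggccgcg
These windows are chr8:75109259-75109558 (plus strand, Mcm5), chr1:128359656-128359955 (minus strand, Mcm6), chr4:136172024-136172323 (plus strand, the upstream of the windows listed for E2f2) and chr4:34614893-34615192 (minus strand, Orc3), each written 5′ to 3′ on the strand of its gene. With the annotated start as position 0, Mcm5 has overlapping matches on opposite strands whose first bases are at -153 and -149. Mcm6 has such a pair at -110 and -106 and a further match at -47. The match in E2f2 begins at 39, after the RefSeq start, but lies before the start of the gene in GENCODE M21 (chr4:136172394). That in Orc3 begins at -41. The letters thus stood in windows of genes that fell, of the gene that rose and of a gene that was not called. Of the 19 genes with the letters, 12 were called lower and 1 higher (median log2 fold change -0.29), and of the 29 without them, 15 were called lower and 0 higher (median -0.19). The difference between these medians was not tested. The letters TTTGAA, those of the cell cycle homology region found in promoters of mitotic genes, stood in windows of 10 of the 48 genes (20.8%), against 14.2% of tested genes, 20.2% of all genes with a window and 19 of 27 mitosis and G2/M genes with a window (70.4%). CCAAT, the letters bound by NF-Y, stood in 28 of the 48 (58.3%), against 43.1% of tested genes and 41.1% of all genes with a window. Split by call, CCAAT stood in 12 of 27 genes called lower (44.4%) and 15 of 20 not called (75%).

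Among the origin licensing genes, the loading factors Cdc6 and Cdt1 fell, and none of the 6 genes of the origin recognition complex was called. Cdc6, an ATPase that works with the origin recognition complex to load MCM, was at 17.8, 14.4 and 14.7 CPM in knockout libraries and at 19.9, 18.5 and 19.3 CPM in control libraries. Cdt1, which delivers MCM to the origin, was at 18.0, 22.7 and 18.3 CPM in knockout libraries and at 23.9, 22.9 and 26.1 CPM in control libraries. Both were 1.23-fold lower without overlap between the groups (edgeR adjusted p = 0.0241 for Cdc6 and 0.0310 for Cdt1), and for Cdt1 the highest knockout value lay just below the lowest control value. Orc6, the origin recognition subunit with the highest level per kb of exon, was at 66.8, 62.1 and 65.1 CPM in knockout libraries and at 73.9, 71.1 and 69.8 CPM in control libraries (log2 fold change -0.15 with an SE of 0.051, edgeR adjusted p = 0.053). Its groups did not overlap, yet it missed the threshold. Orc1, which is regulated through the cell cycle, averaged 7.58 ± 0.584 CPM in knockout and 8.79 ± 0.154 CPM in control libraries (SD, n = 3 each; edgeR adjusted p = 0.127). Of the remaining subunits, Orc2 and Orc4 had fitted log2 changes of -0.12 and -0.085, and Orc3 and Orc5 of 0.045 and 0.0084. In knockout replicate 2, Orc2, Orc3 and Orc4 had the lowest values of the 6 libraries, at 60.4, 82.9 and 58.5 CPM.

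Mcm5 and Gins2, both helicase genes, had the largest falls of the 56 genes. Of 12 genes for the MCM ring, Cdc45, GINS and Mcm10, 7 fell, 0 rose and 5 were not called. Mcm5, a subunit of the ring that encircles DNA, was at 136, 129 and 122 CPM in knockout libraries and at 185, 170 and 178 CPM in control libraries. It was 1.38-fold lower (log2 fold change -0.46 with an SE of 0.053, edgeR adjusted p = 2.92e-05), with a gap between the groups wider than the range of either. Mcm6 was at 403, 377 and 376 CPM in knockout libraries and at 504, 477 and 488 CPM in control libraries, 1.27-fold lower (edgeR adjusted p = 0.000157). Per kb of exon Mcm6 had the highest level of all 56 genes, 82.6 CPM per kb in knockout and 105 CPM per kb in control cells. Mcm2 was at 214, 207 and 204 CPM in knockout libraries and at 280, 261 and 268 CPM in control libraries, 1.29-fold lower (edgeR adjusted p = 6.44e-05). Mcm3 (1.24-fold lower) and Mcm4 (1.15-fold lower) also fell, with edgeR adjusted p of 0.000357 and 0.00923, and none of these groups overlapped. Mcm7 averaged 112 ± 4.3 CPM in knockout and 124 ± 5.47 CPM in control libraries without overlap and was not called (SD, n = 3 each; log2 fold change -0.14 with an SE of 0.051, edgeR adjusted p = 0.059). The MCM proteins form a ring with equal numbers of each subunit, but the levels of their transcripts per kb of exon spanned 25.3 (Mcm7) to 82.6 (Mcm6) CPM per kb in knockout cells and 27.9 (Mcm7) to 105 (Mcm6) CPM per kb in control cells. The order from low to high, Mcm7, Mcm2, Mcm5, Mcm3, Mcm4, Mcm6, was the same in both groups. It depends on the annotated lengths, which count all exons of a gene and may exceed the expressed transcript. These were 6956 bases for Mcm2 and 3589 to 4666 bases for the other ring subunits. In CPM without length, Mcm2 stood next below Mcm6 in both groups.

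GINS, the other partner of the MCM ring, differed among its subunits. Gins2 was at 44.1, 39.7 and 39.1 CPM in knockout libraries and at 57.4, 54.0 and 52.6 CPM in control libraries (1.33-fold lower, edgeR adjusted p = 0.00026). Gins3 was at 11.7, 12.2 and 11.9 CPM in knockout libraries and at 16.2, 14.6 and 16.6 CPM in control libraries (1.32-fold lower, edgeR adjusted p = 0.00219). Neither gene overlapped between groups. Gins1 missed the threshold (log2 fold change -0.21 with an SE of 0.085, edgeR adjusted p = 0.0938), and Gins4 was at 61.8, 61.4 and 58.8 CPM in knockout and 61.0, 60.5 and 57.4 CPM in control libraries, with overlap (log2 fold change 0.023 with an SE of 0.051). Cdc45, which joins MCM and GINS, was at 34.0 ± 1.09 CPM in knockout and 35.3 ± 2.61 CPM in control libraries (SD, n = 3 each; edgeR adjusted p = 0.601). Mcm10, a helicase activation factor, was at 11.9 ± 0.432 CPM in knockout and 13.8 ± 0.973 CPM in control libraries (SD, n = 3 each; edgeR adjusted p = 0.0806). Whether Gins2 and Gins3 differed in response from Gins4 was not tested.

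Both genes of the kinase that activates the loaded helicase fell. Dbf4, the regulatory subunit, was at 35.6, 33.5 and 34.5 CPM in knockout libraries and at 44.4, 43.4 and 43.7 CPM in control libraries, 1.27-fold lower (edgeR adjusted p = 0.000423). Cdc7, the catalytic subunit, was at 32.3, 29.5 and 31.4 CPM in knockout libraries and at 35.8, 37.8 and 34.8 CPM in control libraries, 1.16-fold lower (edgeR adjusted p = 0.0206). The groups did not overlap for either gene.

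**Figure D2:**
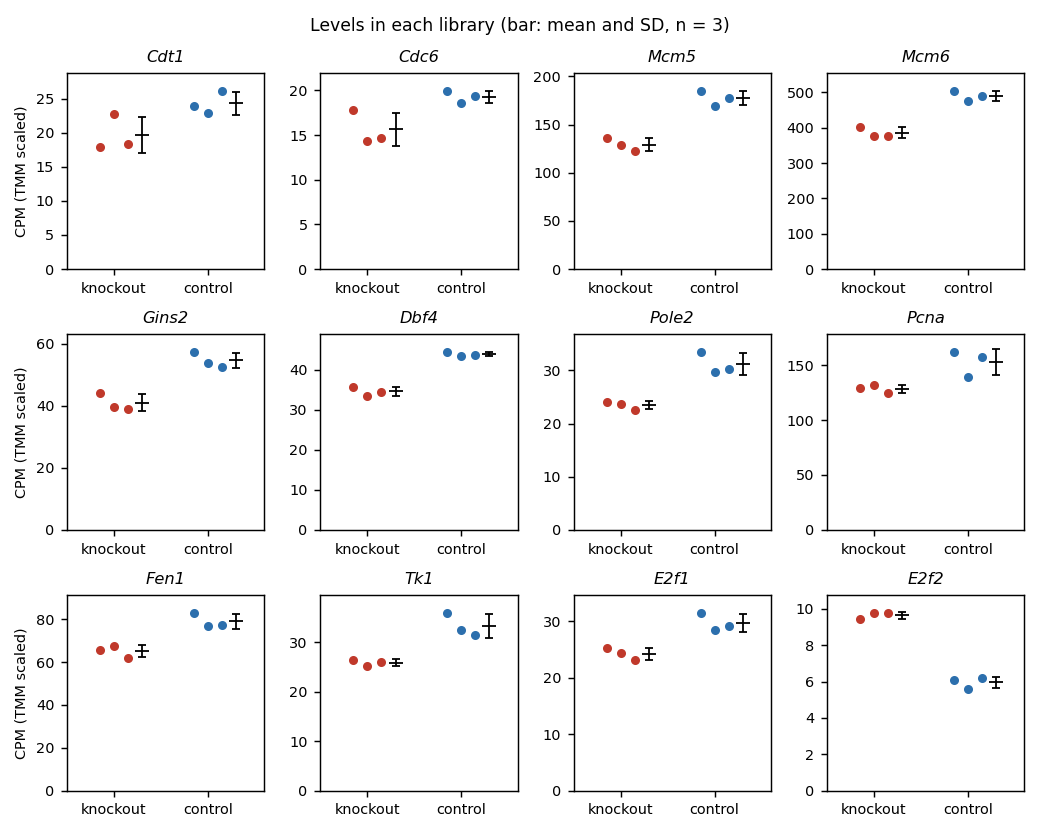
CPM (vertical axes from 0) of 12 of the genes in each knockout (red, left) and control (blue, right) library, with black bars for mean and SD over 3 libraries. In 11 panels every knockout library lies below every control library, with Cdt1 the closest at 22.7 against 22.9 CPM, and in the E2f2 panel every knockout library lies above. The 12 genes were picked from the called genes, and all 33 genes called lower lie below without overlap. This holds for 42 of the 56 genes and for 19.3% of all tested genes.

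Of 9 polymerase and primase genes, 6 fell and 3 were not called, and the fitted change was below 0 for all 9. Pole2, a subunit of polymerase epsilon, was at 24.0, 23.8 and 22.6 CPM in knockout libraries and at 33.5, 29.8 and 30.4 CPM in control libraries, 1.33-fold lower (edgeR adjusted p = 0.000491). Pold1, the catalytic subunit of polymerase delta, was at 42.1, 44.8 and 41.7 CPM in knockout libraries and at 52.9, 51.2 and 56.4 CPM in control libraries, 1.25-fold lower (edgeR adjusted p = 0.00126). Pola1, the catalytic subunit of polymerase alpha, was at 126, 109 and 118 CPM in knockout libraries and at 147, 143 and 140 CPM in control libraries, 1.22-fold lower (edgeR adjusted p = 0.00199). None of these 3 overlapped between groups. Its partner subunit Pola2 (1.18-fold lower) and the primase subunit Prim2 (1.21-fold lower) fell as well. Pole, the catalytic subunit of polymerase epsilon, was 1.12-fold lower at the edge of the threshold (edgeR adjusted p = 0.0493), and 13 of 15 alternative settings did not call it. Pold2, the gene of this group with the highest level per kb, was at 36.5, 39.2 and 35.4 CPM in knockout libraries and at 40.0, 38.8 and 41.9 CPM in control libraries, with overlap (log2 fold change -0.12 with an SE of 0.060, edgeR adjusted p = 0.185). Prim1 and Pold3 had fitted log2 changes of -0.16 and -0.17 and were not called.

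The sliding clamp gene and most of its loader genes were lower. Pcna, which encodes the clamp that tethers polymerases to DNA, was at 129, 132 and 124 CPM in knockout libraries and at 162, 139 and 158 CPM in control libraries, 1.19-fold lower (edgeR adjusted p = 0.00605). The groups did not overlap, with control replicate 2 nearest to the knockout libraries. Of the 5 loader genes, 3 fell. Rfc5 was at 42.2, 42.3 and 40.5 CPM in knockout libraries and at 53.6, 47.1 and 48.7 CPM in control libraries (1.20-fold lower, edgeR adjusted p = 0.00713). Rfc3 was at 34.4, 33.1 and 31.4 CPM in knockout libraries and at 40.9, 36.8 and 38.9 CPM in control libraries (1.18-fold lower, edgeR adjusted p = 0.0139). Rfc2 was 1.13-fold lower (edgeR adjusted p = 0.0193), and none of the 3 overlapped between groups. Rfc1 and Rfc4 were not called (log2 fold changes of -0.089 and -0.064). Of the genes for replication protein A, which coats single-stranded DNA, Rpa2 was at 49.3, 44.4 and 45.8 CPM in knockout and 56.2, 57.3 and 53.3 CPM in control libraries (1.20-fold lower, edgeR adjusted p = 0.00536). Rpa1, at 175, 167 and 169 CPM in knockout and 200, 191 and 186 CPM in control libraries, was 1.13-fold lower (edgeR adjusted p = 0.0166). Rpa3, the small subunit, averaged 20.8 ± 2.03 CPM in knockout and 19.4 ± 0.958 CPM in control libraries with overlap and was not called (SD, n = 3 each).

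The genes that finish Okazaki fragments fell. Fen1, the flap endonuclease, was at 65.8, 67.6 and 62.1 CPM in knockout libraries and at 83.0, 76.7 and 77.5 CPM in control libraries, 1.21-fold lower (edgeR adjusted p = 0.00188). Lig1, the replicative DNA ligase, was at 53.8, 52.1 and 47.7 CPM in knockout libraries and at 59.9, 55.2 and 59.1 CPM in control libraries, 1.13-fold lower (edgeR adjusted p = 0.0433). Neither gene overlapped between groups, and the gap was narrow for Lig1.

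Nucleotide supply was mixed: Tk1, Dut and Tyms fell, and the ribonucleotide reductase genes Rrm1 and Rrm2 were not called. Tk1, the cytosolic thymidine kinase, was at 26.5, 25.2 and 26.1 CPM in knockout libraries and at 36.0, 32.5 and 31.4 CPM in control libraries, 1.29-fold lower (edgeR adjusted p = 0.00132). Dut, which removes dUTP, was at 64.3, 59.1 and 58.2 CPM in knockout libraries and at 78.4, 77.1 and 71.3 CPM in control libraries, 1.25-fold lower (edgeR adjusted p = 0.00111). Tyms, thymidylate synthase, was at 43.6, 41.3 and 41.7 CPM in knockout libraries and at 51.2, 46.5 and 47.4 CPM in control libraries, 1.15-fold lower (edgeR adjusted p = 0.0235). These 3 act on thymidine or uridine nucleotides, and their groups did not overlap. Rrm1, the large subunit of ribonucleotide reductase, was at 260, 245 and 251 CPM in knockout libraries and at 271, 255 and 243 CPM in control libraries (log2 fold change -0.025 with an SE of 0.051). Rrm2, the small subunit, was at 44.9, 52.6 and 42.8 CPM in knockout libraries and at 45.4, 46.8 and 42.9 CPM in control libraries (log2 fold change 0.056 with an SE of 0.074). Knockout replicate 2 was the highest of the 6 libraries for Rrm2, and the groups overlapped for both genes.

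The E2F genes moved in opposite directions. E2f2 was at 9.43, 9.75 and 9.78 CPM in knockout libraries and at 6.10, 5.60 and 6.18 CPM in control libraries. It was 1.62-fold higher (log2 fold change 0.69 with an SE of 0.093, edgeR adjusted p = 0.000109), the largest change in size among the 56 genes, with every knockout library above every control library. E2f1, like E2f2 counted among the activator E2Fs, was at 25.3, 24.5 and 23.2 CPM in knockout libraries and at 31.5, 28.6 and 29.2 CPM in control libraries, 1.23-fold lower without overlap (edgeR adjusted p = 0.00561). E2f3, the remaining activator gene, averaged 18.6 ± 0.389 CPM in knockout and 20.6 ± 0.237 CPM in control libraries (SD, n = 3 each; log2 fold change -0.15 with an SE of 0.065, edgeR adjusted p = 0.126). Per kb of exon, E2f2 was the lowest of the 3, at 1.98 CPM per kb in knockout and 1.22 CPM per kb in control cells, against 7.70 and 9.44 CPM per kb for E2f1 in knockout and control cells. Of the E-type cyclins, which drive entry into S phase with Cdk2, Ccne2 was at 72.5, 63.5 and 70.4 CPM in knockout libraries and at 86.4, 79.5 and 78.3 CPM in control libraries, 1.18-fold lower (edgeR adjusted p = 0.0104). Ccne1 was at 25.3 ± 1.53 CPM in knockout and 26.6 ± 1.64 CPM in control libraries, with overlap (SD, n = 3 each; edgeR adjusted p = 0.507).

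Of the 4 genes that restore chromatin and DNA methylation behind the fork, 3 fell. Chaf1b, a subunit of the histone chaperone CAF-1, was at 48.9, 45.7 and 46.5 CPM in knockout libraries and at 63.4, 59.2 and 58.6 CPM in control libraries, 1.29-fold lower (edgeR adjusted p = 0.00031). Uhrf1, which brings the maintenance methyltransferase to newly copied DNA, was at 56.8, 53.6 and 52.7 CPM in knockout libraries and at 71.0, 67.7 and 66.7 CPM in control libraries, 1.26-fold lower (edgeR adjusted p = 0.000417). Chaf1a, the large CAF-1 subunit, was at 43.2, 45.1 and 39.7 CPM in knockout libraries and at 48.2, 47.6 and 50.1 CPM in control libraries, 1.14-fold lower (edgeR adjusted p = 0.0359). None of the 3 overlapped between groups. Dnmt1, the maintenance methyltransferase and the most abundant of the 4 per kb, was at 232, 250 and 229 CPM in knockout libraries and at 264, 252 and 269 CPM in control libraries and missed the threshold although no values overlapped (log2 fold change -0.14 with an SE of 0.050, edgeR adjusted p = 0.0558).

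**Figure D3:**
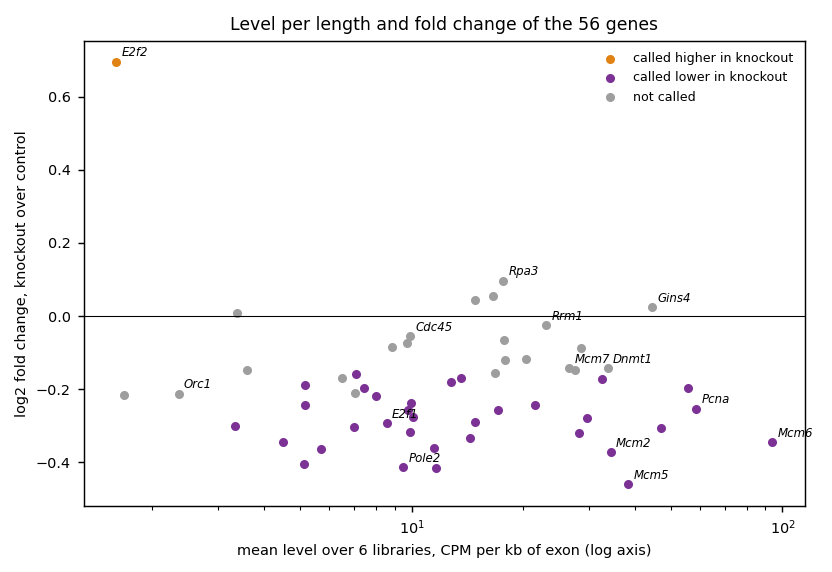
Mean level over the 6 libraries (horizontal log axis, CPM per kb of exon) against log2 fold change (vertical axis, knockout over control) for the 56 genes, coloured by edgeR call. Called falls occur from low levels to Mcm6 at the far right, and E2f2, the gene at the lowest level, is the one called higher.

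Libraries of a group lay close together for these genes. The coefficient of variation of CPM within a group had a median over the 56 genes of 4.31% in knockout libraries and 4.34% in control libraries, and the fewest reads for any of the genes in a library were 158 (E2f2, control replicate 2). Control replicate 1 had the highest control value for 42 of the 56 genes and the lowest for 0, while knockout replicate 3 had the lowest knockout value for 26 and the highest for 6. Without control replicate 1, 18 of the genes were called lower, and without knockout replicate 3, 21. Lower calls fell over all tested genes as well, from 10.5% with all libraries to 6.09% and 6.06%. The median log2 fold change of the 56 genes was then -0.19 and -0.20. E2f2 was called higher in all 15 alternative settings. Besides E2f2, 18 of the genes called lower kept their call in all 15: Mcm2, Mcm3, Mcm5, Mcm6, Gins2, Gins3, Dbf4, Pola1, Prim2, Pold1, Pole2, Rpa2, Fen1, Tk1, Dut, E2f1, Chaf1b and Uhrf1. Mcm4, Pola2, Rfc2, Rfc3, Rpa1 and Tyms lost it without either of the libraries just named, with edgeR adjusted p of at most 0.128 (Tyms). All of these genes except Mcm4 also lost it at a threshold of 0.01. Pcna, Rfc5 and Ccne2 lost it without control replicate 1 (edgeR adjusted p of 0.0501, 0.0544 and 0.0673), and Ccne2 also at a threshold of 0.01. Cdc6, Cdt1, Cdc7, Lig1 and Chaf1a lost it without these libraries and in 2 to 5 further settings.

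Some transcripts overlap other genes on the opposite strand, and whether the counting used strand is not given in the sources used here. Chaf1a shares 52.5% of its exonic bases with Ubxn6, which was at 50.2 CPM and not called. Gins2 shares 67.3% with Gse1 (6.07 CPM), Orc2 29.8% with Nif3l1 and Ccne2 17.4% with Ints8 (51.2 CPM), and none of these partners was called. Rfc5 shares 10.7% with Wsb2, at 90.7 CPM, which itself was lower in knockout cells (log2 fold change -0.21 with an SE of 0.050, edgeR adjusted p = 0.00795). Rfc4 shares 12.7% with the abundant Eif4a2 (195 CPM) and Orc6 6.93% with Vps35 (314 CPM), neither called. Fen1, Rfc2 and Orc1 share from 10.8% to 78.8% with partners below 1 CPM, and Fen1 shares a further 5.37% with Tmem258 (82.8 CPM, not called). Mcm7 shares 7.25% with Ap4m1 (51.9 CPM, not called). Cdc45 shares 5.96% with Ufd1 (61.9 CPM) and Orc4 5.98% with Acvr2a (56.05 CPM), neither called. Without strand, reads over these bases cannot be assigned to 1 gene.

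Of 42 other genes of replication, outside the 56, 21 fell (50%, against 10.5% of all tested genes), 2 rose and 19 were not called, with a median log2 fold change of -0.21. Dscc1, a subunit of an alternative clamp loader, was at 8.01 ± 1.04 CPM in knockout and 11.1 ± 0.46 CPM in control libraries, 1.39-fold lower (edgeR adjusted p = 0.00431). Cdca7 was 1.33-fold lower (38.4 ± 4.08 CPM in knockout and 50.9 ± 1.49 CPM in control libraries), and the deoxycytidylate deaminase gene Dctd 1.29-fold lower (13.1 ± 0.23 and 16.9 ± 1.16 CPM; SD, n = 3 each). The genes that rose were Asf1b, a histone chaperone gene, 1.26-fold (30.7 ± 1.59 CPM in knockout and 24.3 ± 1.19 CPM in control libraries), and Pold4, a small subunit of polymerase delta, 1.19-fold (29.6 ± 1.74 and 24.9 ± 1.00 CPM; SD, n = 3 each). Pold4 was not called without knockout replicate 1 or 3 or control replicate 1 or 2 (edgeR adjusted p of 0.0503 to 0.0839).

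Of 30 genes of mitosis and G2/M, 14 fell, 0 rose and 16 were not called, with a median log2 fold change of -0.21. Lower calls made up 46.7% of this list, against 10.5% of all tested genes. The kinetochore gene Knl1 was 1.26-fold lower (35.6 ± 3.74 CPM in knockout and 45.0 ± 2.76 CPM in control libraries), the spindle gene Tpx2 1.24-fold lower (79.3 ± 2.24 and 98.0 ± 6.37 CPM) and the kinetochore gene Nuf2 1.22-fold lower (29.9 ± 2.63 and 36.5 ± 2.60 CPM; SD, n = 3 each). Nuf2 was not called without knockout replicate 3 or control replicate 1 (edgeR adjusted p of 0.0807 and 0.0872). The proliferation marker Mki67, named outside the rule for choosing genes, was at 156 ± 9.74 CPM in knockout and 173 ± 12.6 CPM in control libraries and was not called (SD, n = 3 each; edgeR adjusted p = 0.0977), but was called lower without knockout replicate 1 or control replicate 2 (edgeR adjusted p of 0.038 and 0.0276).

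Of 32 genes that control RB, E2F and cyclin-dependent kinases, 6 fell, 6 rose and 20 were not called, with a median log2 fold change of 0.0094. Lower calls made up 18.8% of this list, against 10.5% of all tested genes, and calls in either direction 37.5%, against 22.4%. Cdkn1c, the gene of the cyclin-dependent kinase inhibitor p57, was 4.58-fold lower (45.0 ± 5.29 CPM in knockout and 206 ± 25.7 CPM in control libraries). The E2F-regulated factor gene Mybl2 was 1.39-fold lower (3.48 ± 0.434 and 4.83 ± 0.236 CPM) and the G1 kinase gene Cdk4 1.23-fold lower (321 ± 8.64 and 395 ± 2.53 CPM; SD, n = 3 each). Mybl2 was not called without knockout replicate 3 or control replicate 1 (edgeR adjusted p of 0.0847 and 0.0812). The largest rises were those of the G1 kinase gene Cdk6, 1.49-fold higher (7.28 ± 0.459 and 4.89 ± 0.352 CPM), the kinase inhibitor gene Cdkn2b, 1.34-fold higher (72.1 ± 3.63 and 53.7 ± 2.32 CPM), and Rb1, the retinoblastoma gene, 1.30-fold higher (43.9 ± 1.90 CPM in knockout and 33.9 ± 2.30 CPM in control libraries; SD, n = 3 each). Named outside the rule, the p21 gene Cdkn1a rose 1.29-fold (102 ± 7.42 CPM in knockout and 79.6 ± 4.05 CPM in control libraries; SD, n = 3 each). The remaining genes of this list called higher, also named outside the rule, were E2f5 (1.19-fold, edgeR adjusted p = 0.0425) and Cdc25a (1.16-fold, edgeR adjusted p = 0.0158). The remaining genes called lower, likewise outside the rule, were Skp2 (1.19-fold), Rbl1 (1.15-fold) and Tfdp1 (1.15-fold). Their edgeR adjusted p were 0.0109, 0.0133 and 0.00805.

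**Figure D4:**
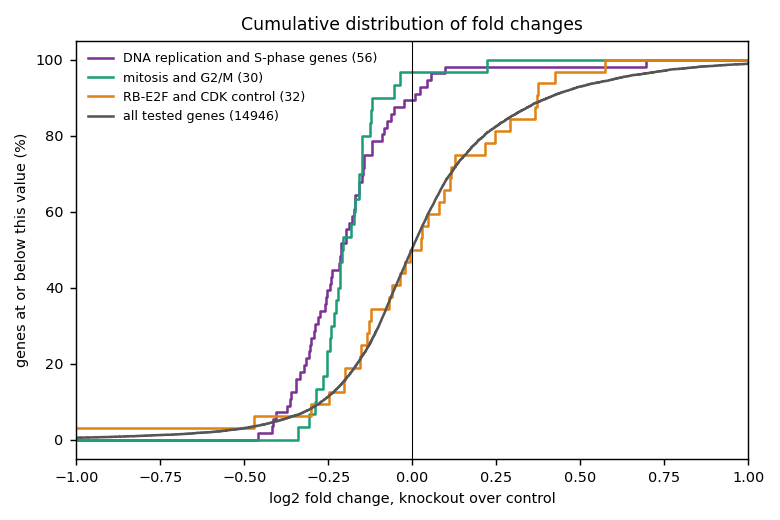
Cumulative share of genes (vertical axis, %) at or below each log2 fold change (horizontal axis, knockout over control) for the 56 replication genes, 30 mitosis genes, 32 RB-E2F and kinase control genes and 14946 tested genes. The replication and mitosis curves lie left of the curve of all tested genes, with medians of -0.21 each against -0.0017, and the RB-E2F curve has its median at 0.0094.

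**Figure D5:**
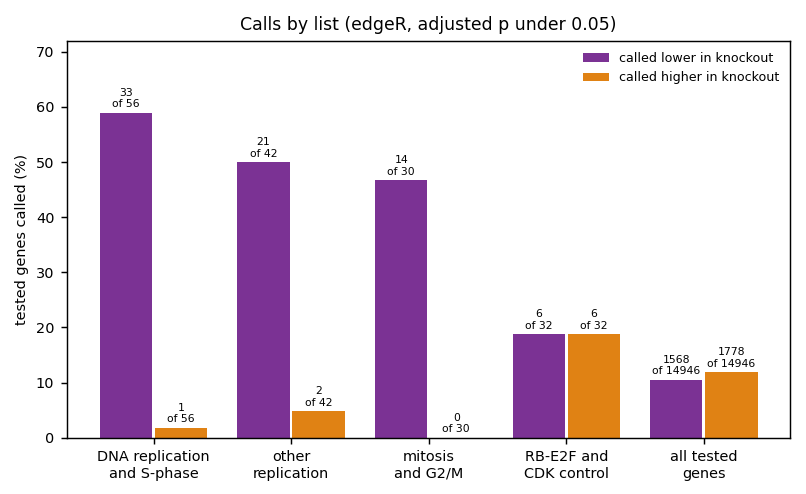
Share of the tested genes of each list (vertical axis, %) that edgeR called lower (purple) and higher (orange) in knockout cells at an adjusted p under 0.05. Lower calls make up 33 of 56 replication genes and 14 of 30 mitosis genes, against 1568 of 14946 tested genes.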

How the data were processed

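Per the labels' protocols, RNA-seq used a stranded total RNA kit that removes ribosomal RNA. The authors deposited raw read counts per Ensembl gene, without normalization, in 1 column per library. Tools listed in the submitters' processing notes, with no roles, are DESeq2 1.16.0, featureCounts 1.5.1 and STAR 2.5.2b, and the build is GRCm38. Not given in the sources used here are the annotation release, the strand setting and how multi-mapping reads were treated. Symbols were matched by Ensembl identifier (49326 of 49671), and exonic lengths and overlaps were taken from GENCODE M21 (GRCm38). CPM per kb uses all annotated exons of a gene, which may exceed the expressed transcript.

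Tests used edgeR 4.0.16 under R 4.3.3 (robust quasi-likelihood F-test, TMM, filterByExpr, group as the only term), with Benjamini-Hochberg adjustment over 14946 genes and a threshold of 0.05. SE is the size of the log2 fold change divided by the square root of F. The common biological coefficient of variation was 5.91%. Genes and lists were chosen with earlier results of these data known. Values in every library are given for up to 3 called genes per direction and role group with the largest change (mean log2 CPM 0 or higher), and for the most abundant gene per kb. They are also given for the targeted gene and, outside this rule, for Mcm2, Gins4, Rrm1 and Rrm2. Of each further list, up to 3 called genes per direction are named. No 2 libraries of a group agreed within sampling noise (chi-square over its degrees of freedom between 4.29 and 14.8). Alternatives were scaling by total count, upper quartile or DESeq2 size factors; no filter, or a CPM of at least 1 in 3 libraries; DESeq2 1.42.0; limma-voom (limma 3.58.1); an adjusted p of 0.01; and leaving out libraries. The rest of the erythroid marker list is not reported here.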

Additional observations from a re-analysis of the deposited data

How the results depend on the processing

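The count of the 56 genes called lower was 30 to 36 under the other scalings, filters and tests, and the median log2 fold change was -0.20 to -0.22, while the median of all tested genes stayed within -0.0097 and 0.012. At an adjusted p of 0.01, 22 of the 56 genes were called, 21 of them lower, and 1934 of all genes. With 1 library left out, 19 to 34 of the 56 were called, 18 to 33 of them lower, and 2145 to 3475 of all genes. Without control replicate 3 and knockout replicate 2 together, 36 were called lower and 1 higher. No called gene of the 56 changed sign. Genes that were not called and changed sign, with the log2 range over the fits that leave out 1 library, were Orc5 (-0.034 without knockout replicate 3 and -0.0022 without control replicate 2; range -0.034 to 0.031), Cdc45 (0.0089 without control replicate 1; range -0.099 to 0.0089), Gins4 (-0.0077 without control replicate 3; range -0.0077 to 0.044), Rrm1 (0.016 without control replicate 1; range -0.065 to 0.016) and Rrm2 (-0.037 without knockout replicate 2; range -0.037 to 0.12). Without control replicate 3 and knockout replicate 2 together, Gins4 was at -0.011 and Rrm2 at -0.069. The causes were not tested. Orc2, Orc6, Mcm7, Mcm10, Prim1, Pold3 and Dnmt1, not called with all libraries, were called lower in 1 to 3 alternatives each. The log2 fold change of Tcf7l2 ranged from -0.46 (without control replicate 2, called) to -0.19 (without control replicate 3). No paired analysis was possible because no replicate number in the labels is shared between groups. The called falls were at most 1.38-fold, and a missed threshold among the 22 genes not called does not show that their levels were equal.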
